A study of Sus scrofa with 7 samples.

Results

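Transcripts of 9 genes that carry the beta-adrenergic and cyclic AMP signal of heart muscle were described: the receptors ADRB1 and ADRA1A, the receptor kinase GRK5, the adenylyl cyclases ADCY5 and ADCY6, the phosphodiesterases PDE3A and PDE4D, the anchoring protein AKAP6 and the catalytic kinase subunit PRKACA. They were taken by symbol from a table of 20653 pig genes, with the transcript row of the highest mean over the 7 libraries standing for each gene, and all 9 had enough reads to be tested. The samples were anteromidventricular myocardium of male farm pigs, each 14 weeks after an infarction of the left circumflex (LCX) territory. The 4 libraries labelled S100a1 come from pigs treated with AAV5, an adeno-associated virus serotype, as the vector for human S100A1, which binds calcium in cardiomyocytes. The 3 libraries labelled hrLuc come from pigs whose AAV5 vector carried a luciferase reporter. All 7 hearts were therefore both infarcted and vector-treated, and no heart without infarction or without vector was analysed here. The sources used here do not give the promoter of the vectors, their dose or the age of the pigs.

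When noradrenaline or adrenaline binds the beta-1 receptor of a cardiomyocyte, a stimulatory G protein turns on adenylyl cyclase, which makes cyclic AMP. Cyclic AMP releases the catalytic subunits of protein kinase A, and these phosphorylate calcium channels, the ryanodine receptor, phospholamban and troponin I, so that the heart beats faster and harder. Receptor kinases quench the receptor, phosphodiesterases break cyclic AMP down, and A-kinase anchoring proteins hold kinase and phosphodiesterase beside their targets. In failing hearts loss of beta-1 receptors and a rise of receptor kinases are textbook features of this pathway.

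The 7 libraries held 28679324 to 38409552 reads with 1 row kept per gene. The pig S100A1 gene had 5950.1, 6804, 6548 and 4429 normalized counts in the S100a1 libraries, against 7461, 6568 and 9125 in the hrLuc libraries. It was not higher where human S100A1 was delivered, and because the vector carried the human sequence it does not check the labels, so the groups are named by their labels alone. The defining markers of cardiomyocytes were present in every library, with MYH7 between 962373 and 1170230 normalized counts. Normalized counts are reads divided by 1 size factor per library. Fold changes are S100a1 over hrLuc on the log2(value + 0.5) scale, with their standard error (SE) from limma, and adjusted p-values are those of limma with Benjamini-Hochberg adjustment over 15661 genes unless another tool is named. Transcript lengths were not used, so levels are compared between libraries within a gene and never between genes.

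None of the 9 genes passed the adjusted threshold of 0.05 in limma, which 0.0128% of the genes tested passed. In bulk tissue fewer cells of a type and less RNA per cell cannot be told apart. At an unadjusted p under 0.05 there were 4 of them, GRK5, PDE3A, PDE4D and AKAP6, each higher in the S100a1 libraries, where the share over all genes was 3.69% in that direction and 4.57% in the other. All 4 are long genes, and that share was 9.73% among genes spanning 200 to 500 kb and 9.92% among genes over 500 kb. With the reads behind the normalized values, edgeR, DESeq2 and limma-voom also called 0 of the 9, with 4 at an unadjusted p under 0.05 in each tool. AKAP6 was the 1 gene of the 9 whose groups did not overlap, a pattern found in that direction in 3.96% of the genes tested and in either direction in 9.27%. The other 5 genes, among them both receptors and both cyclases, had log2 fold changes between -0.12 and 0.02.

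**Figure D1:**
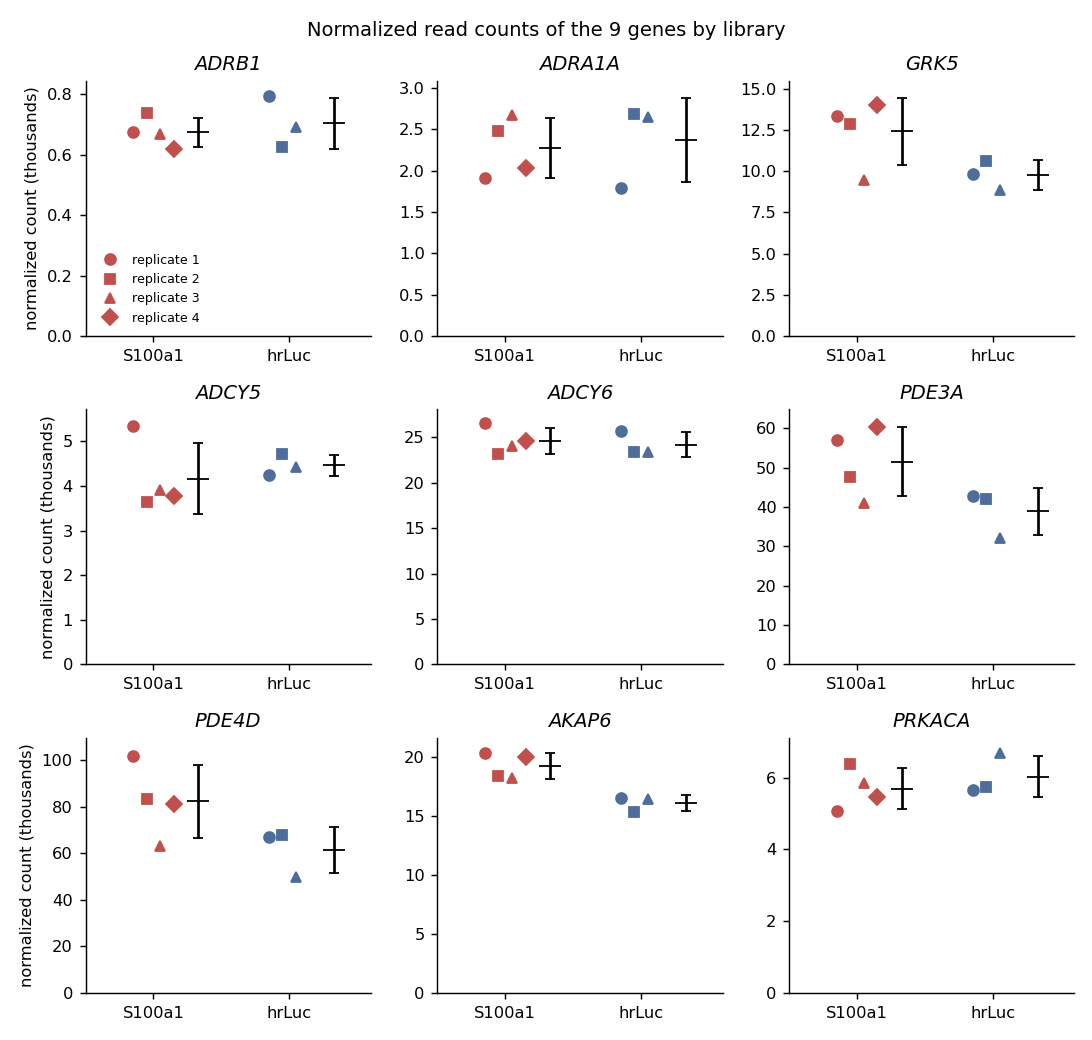
Normalized read count (in units of 1000, axis from 0) of each of the 9 genes in the 4 S100a1 libraries (red, left) and the 3 hrLuc libraries (blue, right); marker shapes give the replicate number, and black bars the mean and SD of a group. AKAP6 is the 1 panel in which every S100a1 library lies above every hrLuc library.

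ADRB1 encodes the beta-1 adrenergic receptor, the main beta receptor of the cardiomyocyte, and lies on chromosome 14 from 124400330 to 124401739 (Sscrofa11.1). It had 677, 737, 667 and 619.7 normalized counts in S100a1 replicates 1 to 4, against 795, 625 and 691 in hrLuc replicates 1 to 3. The highest count was in hrLuc replicate 1 and the lowest in S100a1 replicate 4, just under hrLuc replicate 2. The groups overlapped, with hrLuc replicate 1 above all S100a1 libraries. Means were 675 ± 48.2 (SD, n = 4) in S100a1 and 704 ± 85.6 (SD, n = 3) in hrLuc, and limma put the log2 fold change at -0.06 ± 0.10 (adjusted p = 0.894). The 95% interval of the difference ran from -0.29 to 0.18. It was at 0.04 without hrLuc replicate 1 and at -0.14 without hrLuc replicate 2.

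ADRA1A encodes the alpha-1A receptor, which couples to Gq and calcium release rather than to cyclic AMP, and lies on chromosome 14 from 10623391 to 10733378. Its counts were 1908, 2483, 2669 and 2027 in the S100a1 libraries, against 1788, 2684 and 2653 in the hrLuc libraries. Both groups were split in the same way, with 2 low and 2 high S100a1 libraries and 1 low and 2 high hrLuc libraries, so that hrLuc replicate 1 was the lowest of all. By limma the difference was -0.05 ± 0.17 on the log2 scale (adjusted p = 0.937), with a 95% interval of -0.43 to 0.33. It was at -0.25 without hrLuc replicate 1 and turned positive, between 0.03 and 0.05, without S100a1 replicate 1, hrLuc replicate 2 or hrLuc replicate 3. ADRA1A had the widest spread within hrLuc of the 9 genes, a coefficient of variation of 21.4%. Its 12 transcript rows held 6 distinct sets of values. In the lowest of them the count was 910, 727, 927 and 1009.8 in S100a1, against 609, 995 and 1001 in hrLuc, again overlapping, and its log2 fold change was 0.07.

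Of the 9 adrenergic receptor genes listed, 7 had enough reads for a test and 0 passed in either direction in limma, with 0 at an unadjusted p under 0.05 and 0 called by edgeR, DESeq2 or limma-voom. ADRA1B, the alpha-1B receptor, was uneven in S100a1 with 1281, 1106, 1462 and 457, against 632, 1094 and 596 in hrLuc (log2 fold change 0.41 ± 0.38). ADRB3, the beta-3 receptor, reached at most 3.41 normalized counts and ADRA2A at most 12.2 in any library, and both were left out by the filter on low counts. The smallest p among receptors was that of ADRA2B (-0.54 ± 0.31), a receptor with at most 40.5 normalized counts, and ADRA1D was at 0.11 ± 0.39.

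GRK5 encodes a kinase that phosphorylates activated receptors and so uncouples them from their G protein, and that is also known to act in the nucleus. It lies on chromosome 14 from 129113933 to 129351135. Counts were 13343, 12886, 9464 and 14019 in the S100a1 libraries, against 9839, 10644 and 8832 in the hrLuc libraries. S100a1 replicates 1, 2 and 4 lay above every hrLuc library, and S100a1 replicate 3 lay between hrLuc replicates 1 and 3. Means were 12428 ± 2030 (SD, n = 4) in S100a1 and 9772 ± 908 (SD, n = 3) in hrLuc. This was 0.33 ± 0.14 on the log2 scale (limma adjusted p = 0.574, two-sided exact permutation p = 0.114). GRK5 stood at 0.46 when S100a1 replicate 3 was left out and at 0.26 when hrLuc replicate 3 was, and neither fit called it. Its 4 transcript rows had log2 fold changes of 0.33 to 0.39 in the authors' deposited table, with adjusted p between 0.169 and 0.567.

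The other receptor kinases did not share one direction. GRK3, a close relative of GRK2 in sequence, had 4502, 4772, 4514 and 4738 normalized counts in S100a1, against 4137, 3813 and 4432 in hrLuc, so its groups did not overlap (log2 fold change 0.17 ± 0.07, adjusted p = 0.574, limma). GRK2, the receptor kinase most studied in heart failure, had a log2 fold change of -0.16 ± 0.11, with 2224 in S100a1 replicate 1 against 1689 to 1782 in the other 3 S100a1 libraries and 1897 to 2318 in hrLuc. GRK6 was at -0.20 and the arrestins ARRB2 and ARRB1, which bind phosphorylated receptors, at -0.18 and -0.09. Of the 7 genes of this list 0 passed in limma, and 2 had an unadjusted p under 0.05, GRK5 and GRK3. Over all genes tested 3.69% were higher at that p and 3.96% higher without overlap. At that p the share was 6.27% among genes of 100 to 200 kb, as GRK3 is. It was 9.73% among genes of 200 to 500 kb, as GRK5 is. edgeR, DESeq2 and limma-voom called 0 of the 7 genes.

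ADCY5 and ADCY6 encode the adenylyl cyclases that predominate in cardiomyocytes, both inhibited by calcium. ADCY5 lies on chromosome 13 from 136965746 to 137133795. It had 5339.7, 3629, 3901 and 3768 normalized counts in S100a1, against 4249, 4717 and 4424 in hrLuc. S100a1 replicate 1 was the highest of the 7 libraries, while S100a1 replicates 2 to 4 were the 3 lowest, below every hrLuc library. With all libraries ADCY5 was at -0.12 ± 0.13 on the log2 scale (limma adjusted p = 0.808, 95% interval -0.41 to 0.17), and at -0.24 without S100a1 replicate 1 (limma adjusted p = 0.752). Without S100a1 replicate 2 it was at -0.06. Its coefficient of variation was 19.1% in S100a1 and 5.30% in hrLuc.

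ADCY6 lies on chromosome 5 from 14834420 to 14855309. It had 26523, 23100.2, 24025 and 24535 normalized counts in S100a1, against 25730.5, 23369.9 and 23411 in hrLuc. The groups lay on top of each other and the replicates were close, with a coefficient of variation of 5.89% in S100a1 and 5.59% in hrLuc. S100a1 over hrLuc came to 0.02 ± 0.08 on the log2 scale (limma adjusted p = 0.947), and to between -0.02 and 0.07 with a library left out. Its 95% interval from -0.16 to 0.21 was, after that of AKAP6, the narrowest of the 9. Of 10 adenylyl cyclase genes tested, 3 had a positive and 7 a negative log2 fold change (median -0.07, against -0.02 over all genes tested), 0 passed in limma and 0 had an unadjusted p under 0.05. The smallest p among the other cyclases belonged to ADCY3 (-0.27 ± 0.13, overlapping CENPO) and ADCY7 (-0.18 ± 0.09), ahead of ADCY8 (-0.12) and ADCY9 (0.09), and edgeR, DESeq2 and limma-voom called 0.

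**Figure D2:**
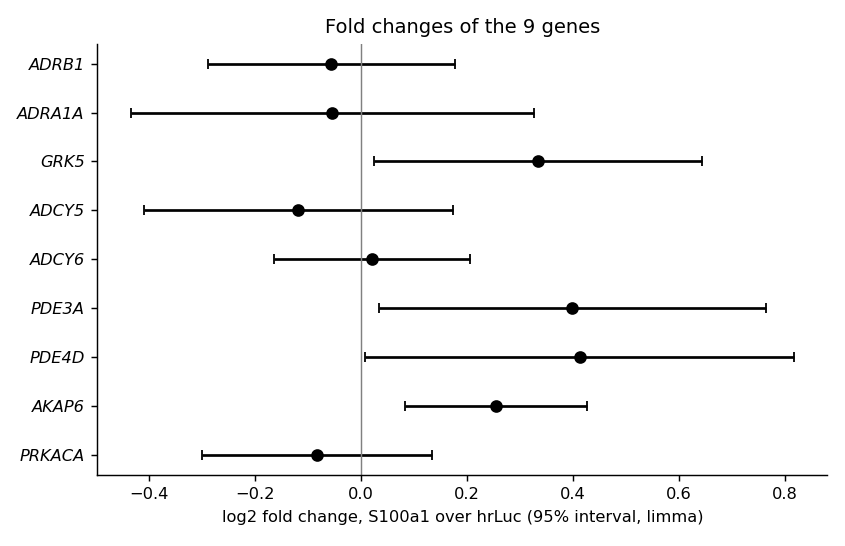
Log2 fold change of each of the 9 genes (points, S100a1 over hrLuc) with its 95% interval from limma (bars), unadjusted for the number of genes. The intervals of GRK5, PDE3A, PDE4D and AKAP6 lie above 0, and the other 5 include it.

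PDE3A and PDE4D break down cyclic AMP close to the calcium-handling proteins of the sarcoplasmic reticulum, and PDE3A is the target of the inotropic drug milrinone. PDE3A lies on chromosome 5 from 52413503 to 52737771. Its counts were 56947, 47699, 41023 and 60236 in S100a1, against 42756, 41974.5 and 32020.1 in hrLuc. S100a1 replicates 1, 2 and 4 stood above all hrLuc libraries, S100a1 replicate 3 lay just under hrLuc replicates 1 and 2, and hrLuc replicate 3 was the lowest by a wide margin. Means were 51476 ± 8760 (SD, n = 4) in S100a1 and 38917 ± 5985 (SD, n = 3) in hrLuc. The ratio on the fitted scale was 1.32, or 0.40 ± 0.16 in log2 (limma adjusted p = 0.574, two-sided exact permutation p = 0.114). Leaving out hrLuc replicate 3 gave 0.26 and leaving out S100a1 replicate 3 gave 0.50.

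PDE4D lies on chromosome 16 from 37897300 to 39406534, a span that holds 9 other RefSeq entries, 2 of them microRNA genes (MIR582 and MIR9800), so reads from these can be counted for it. It had 101878, 83502.5, 63266.5 and 81079 normalized counts in S100a1, against 66970.2, 67766 and 50086 in hrLuc. The order was close to that of PDE3A: S100a1 replicates 1, 2 and 4 were above every hrLuc library, S100a1 replicate 3 was below hrLuc replicates 1 and 2, and hrLuc replicate 3 was lowest. PDE4D differed by 0.41 ± 0.18 on the log2 scale (limma adjusted p = 0.591, two-sided exact permutation p = 0.114), and by 0.27 without hrLuc replicate 3.

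The size of the PDE4D difference depended on the transcript row. The table gives 26 rows for PDE4D, with 22 distinct sets of values and means from 10536 to 73507 normalized counts. In the authors' deposited table the log2 fold change ran from 0.02 to 0.42 over these rows, over 0.3 in 14 rows and under 0.1 in 3, and the smallest adjusted p was 0.318. In the row with the fewest reads the counts were 11356, 12613, 8017 and 10453 in S100a1, against 11626, 6607.5 and 13081 in hrLuc. In that row hrLuc held both the lowest and the highest value. Its log2 fold change was 0.06 ± 0.23 (limma adjusted p = 0.948). The count of the highest row less that of the lowest came to 90522, 70889, 55250 and 70625 normalized counts in S100a1, against 55345, 61159 and 37005 in hrLuc, a log2 difference of 0.50 (two-sided exact permutation p = 0.114). The count of the lowest row was 11.15% to 15.1% of that of the highest in S100a1 and 9.75% to 26.1% in hrLuc, with overlapping groups. Which promoters, exons or shared reads the rows stand for was not analysed here.

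**Figure D3:**
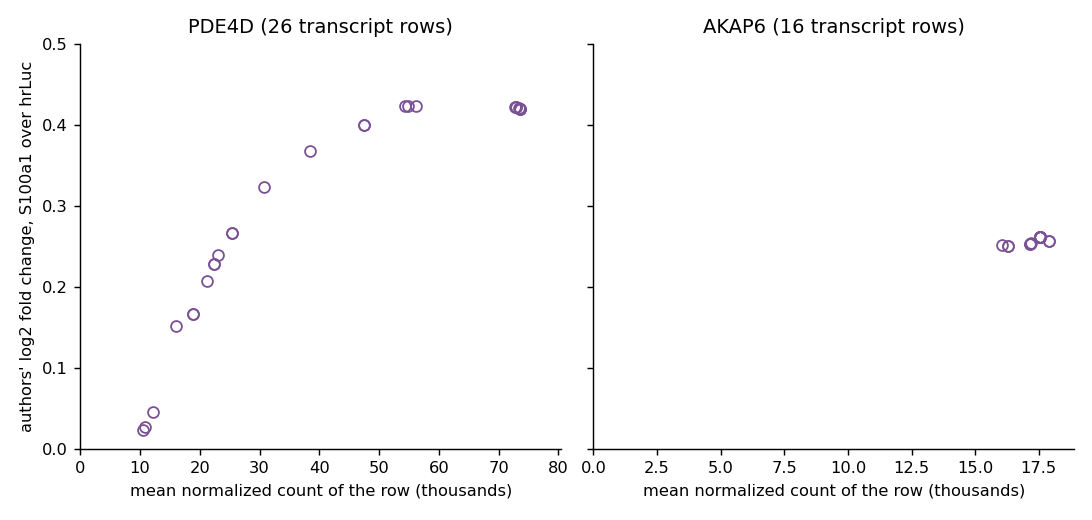
The authors' deposited log2 fold change (S100a1 over hrLuc) of each transcript row of PDE4D (left, 26 rows) and AKAP6 (right, 16 rows) against the mean normalized count of the row (in units of 1000, axes from 0). The PDE4D values climb with the row's count between 0.02 and 0.42 and level off in the rows of most reads, and the AKAP6 values stay between 0.25 and 0.26.

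The other phosphodiesterase genes were mixed in direction. Of the 16 tested beside PDE3A and PDE4D, 6 had a positive and 10 a negative log2 fold change, between -0.42 and 0.10, and 0 had an unadjusted p under 0.05 in limma, nor were any called by edgeR, DESeq2 or limma-voom. PDE1B, a calcium- and calmodulin-activated enzyme, had the smallest p (-0.42 ± 0.22), followed by PDE8A (0.10 ± 0.07, overlapping INSIG2), PDE7B (-0.11 ± 0.08, overlapping MTFR2) and PDE4B (-0.17 ± 0.16). PDE3B, the isoform also known from adipocytes, was at -0.02 ± 0.08, where PDE3A stood at 0.40.

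AKAP6, also called mAKAP, anchors protein kinase A, PDE4D3 and the ryanodine receptor at the nuclear envelope and sarcoplasmic reticulum of the myocyte. It lies on chromosome 7 from 66913541 to 67462147 and overlaps no other gene of the RefSeq table. It had 20356.5, 18368, 18262.5 and 20017.5 normalized counts in the S100a1 libraries, against 16556, 15322 and 16472 in the hrLuc libraries. Every S100a1 library was above every hrLuc library, and the gap between S100a1 replicate 3 and hrLuc replicate 1 was larger than the SD of either group. Means were 19251 ± 1090 (SD, n = 4) in S100a1 and 16117 ± 689 (SD, n = 3) in hrLuc. AKAP6 was thus 0.26 ± 0.08 higher in log2, a ratio of 1.19, with a two-sided exact permutation p of 0.0286, the smallest that 35 splits of 7 libraries can give.

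Whether AKAP6 passed a threshold depended on the test. In the authors' deposited table all 16 of its transcript rows had an adjusted p under 0.05, between 0.0315 and 0.0448, where 0.927% of all rows passed and 0.643% passed with a higher value in S100a1. The kept row had a log2 fold change of 0.26 and an adjusted p of 0.0443 there. Of the kept rows of all genes 0.661% passed in the authors' deposited table, and 0.333% passed with a higher value in S100a1. Adjusted over genes, DESeq2 gave 0.0510 on the recovered reads, edgeR 0.490, limma-voom 0.532 and limma 0.531. The unadjusted p of AKAP6 was under 0.05 in 25 of 26 refits with another setting, and the log2 fold change lay between 0.19 and 0.30 in all of them. The exception centred each library on its cardiomyocyte markers, RYR2 and PLN among them. There AKAP6 was at 0.19 ± 0.10 with an unadjusted p of 0.0698 (limma). The 16 rows held 7 distinct sets of values, and in the row with the fewest reads the groups did not overlap either, with 17856, 16535, 16548 and 18089 in S100a1, against 14706, 13835 and 14935 in hrLuc.

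Among the other anchoring proteins AKAP13, also called AKAP-Lbc, an anchor that is also a guanine nucleotide exchange factor, had the smallest p. It had 27892, 23528, 21627 and 25485.5 normalized counts in S100a1, against 16667.5, 21666 and 18235 in hrLuc, with S100a1 replicate 3 and hrLuc replicate 2 nearly level (log2 fold change 0.39 ± 0.12, adjusted p = 0.534, limma). AKAP9, a large centrosomal and channel-bound anchor, had groups that did not overlap at 0.11 ± 0.06. AKAP11 was at -0.19 ± 0.09 and PALM2AKAP2 at 0.27 ± 0.16. Of the 16 anchoring genes tested beside AKAP6, 9 had a positive log2 fold change (median 0.03), and 0 passed in limma or were called by edgeR, DESeq2 or limma-voom. AKAP13 was the 1 of these 16 with an unadjusted p under 0.05. Over all genes tested 3.69% were higher at that p and 3.96% higher without overlap. Among genes of 200 to 500 kb, as AKAP13 is, 9.73% were higher at that p. Higher without overlap were 6.65% of the genes of 100 to 200 kb, as AKAP9 is.

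PRKACA encodes the alpha catalytic subunit of protein kinase A, the enzyme that carries out the phosphorylations of the pathway, and lies on chromosome 2 from 65074876 to 65095564. It had 5078, 6389.5, 5862 and 5472 normalized counts in S100a1, against 5669.7, 5741 and 6691 in hrLuc. The lowest value was that of S100a1 replicate 1 and the highest that of hrLuc replicate 3, with the other 5 libraries mixed between them. PRKACA was at -0.08 ± 0.10 on the log2 scale (limma adjusted p = 0.820), with a 95% interval of -0.30 to 0.13. It was at -0.01 without hrLuc replicate 3, -0.03 without S100a1 replicate 1, -0.14 without S100a1 replicate 2 and -0.13 without hrLuc replicate 1, and no fit called it. PRKACB, the beta catalytic subunit, was at 0.09 ± 0.12, and the regulatory subunit PRKAR1A at -0.03 ± 0.09. PRKAR1B, another regulatory subunit that overlaps DNAAF5, had 258, 340.2, 364 and 372 in S100a1, against 465, 401 and 433 in hrLuc, with no overlap between groups (log2 fold change -0.39 ± 0.14, adjusted p = 0.557, limma). Lower without overlap were 5.31% of all genes tested, and 4.57% were lower at an unadjusted p under 0.05. Of the 9 genes of kinase subunits and inhibitors 0 passed in limma, PRKAR1B was the 1 with an unadjusted p under 0.05, PRKAR2B was at -0.23, PKIA at 0.12 and PRKAR2A at 0.07, and 0 were called by edgeR, DESeq2 or limma-voom.

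The remaining genes of the pathway were read from lists by role, without the 9 genes. Of 132 listed symbols, 128 were in the table and 122 could be tested, of which 50 had a positive and 72 a negative log2 fold change (median -0.02, as over all genes tested). None passed in limma, edgeR or limma-voom, and DESeq2 called 1, FOSB. At an unadjusted p under 0.05 in limma 8 were higher and 9 lower, which is 17 of 122 genes, against 8.26% of all genes tested. The groups did not overlap in 6 higher and 6 lower genes, where the shares over all genes tested were 3.96% and 5.31%.

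**Figure D4:**
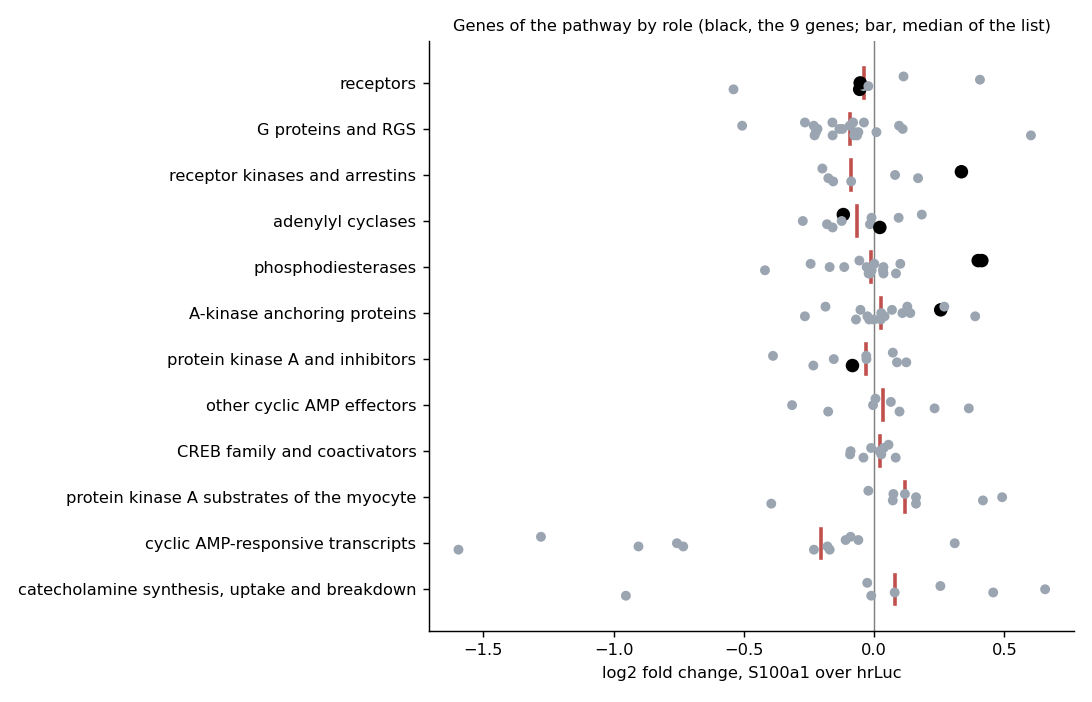
Log2 fold change (S100a1 over hrLuc) of every tested gene of the 12 role lists, with the 9 genes in black, other genes in grey and the median of each list as a red bar. Most lists centre within 0.1 of 0. The list of cyclic AMP-responsive transcripts reaches down to -1.60, its value for FOSB.

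Of 21 genes of G proteins and their RGS regulators, 17 had a negative log2 fold change (median -0.09), 0 passed in limma, and 1 higher and 3 lower had an unadjusted p under 0.05. Over all genes tested 43.5% were positive, and 3.69% were higher and 4.57% lower at that p. GNAI2, the inhibitory G protein subunit that is known to be raised in failing hearts, had 2285, 2570.0, 2403 and 2753 normalized counts in S100a1, against 2925, 2943 and 2928 in hrLuc (log2 fold change -0.23 ± 0.07, adjusted p = 0.535, limma). All 4 S100a1 libraries were below the 3 hrLuc libraries, which were nearly equal. GNB2 and GNG12, beta and gamma subunits, were likewise lower without overlap, at -0.16 ± 0.07 and -0.23 ± 0.09 (GNB2 overlaps GIGYF1). Over all genes tested 5.31% were lower without overlap. GNAO1, the Go subunit, was at 0.60 ± 0.20.

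Among other proteins that bind cyclic AMP, HCN2, a pacemaker channel, had 181, 176, 189 and 181 normalized counts in S100a1, against 154, 135 and 135 in hrLuc (log2 fold change 0.36 ± 0.12, adjusted p = 0.535, limma). BVES, a Popeye-domain protein that binds cyclic AMP, had 3122, 2521, 3076 and 2648 in S100a1, against 3579, 3174 and 3839.9 in hrLuc (-0.31 ± 0.10, adjusted p = 0.535, limma). Neither gene's groups overlapped and neither passed. Over all genes tested the groups did not overlap in 3.96% with S100a1 higher and in 5.31% with S100a1 lower. RAPGEF4, also called EPAC2, a cyclic AMP-gated exchange factor, was at 0.23 ± 0.10, and RAPGEF3, or EPAC1, at 0.10 ± 0.10.

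Of 9 genes whose proteins are phosphorylated by protein kinase A in myocytes, 7 had a positive log2 fold change and 0 passed in limma (3 at an unadjusted p under 0.05, and 0 called by edgeR, DESeq2 or limma-voom). The shares over all genes tested were 43.5% positive and 8.26% at that p. RYR2, the ryanodine receptor that AKAP6 anchors, had 283260, 255246, 210832 and 239519 normalized counts in S100a1, against 177611, 204633 and 171514 in hrLuc (0.42 ± 0.16, adjusted p = 0.573, limma). CACNA1C, the pore of the L-type calcium channel, had 39496.5, 26873, 26384 and 41467 in S100a1, against 22977, 26192.5 and 21159 in hrLuc (0.49 ± 0.18, adjusted p = 0.557, limma). In both genes every S100a1 library was above every hrLuc library, in CACNA1C by a narrow gap. Higher without overlap were 3.96% of all genes tested. That share was 9.41% among genes of 200 to 500 kb, as CACNA1C is, and 8.73% among genes over 500 kb, as RYR2 is. In these span ranges 65.4% and 63.5% of genes had a positive log2 fold change. RRAD, a small GTPase that restrains this channel, was at -0.39 ± 0.15, and PLN, phospholamban, at 0.16 ± 0.09.

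Of 12 transcripts that are known to respond to cyclic AMP through CREB, 11 were on the negative side; the median was -0.21, against -0.02 over all genes tested. None of the 12 passed in limma, and at an unadjusted p under 0.05 there were 1 higher and 3 lower, against 3.69% and 4.57% of all genes tested. FOSB had 21.8, 40.0, 52.7 and 49.7 normalized counts in S100a1, against 106, 165 and 95.4 in hrLuc (log2 fold change -1.60 ± 0.33, adjusted p = 0.415, limma). Its groups did not overlap, as in 5.31% of all genes tested with S100a1 lower. FOS, like FOSB a subunit of the AP-1 factor, was at -1.28 ± 0.36 with overlapping groups. NR4A2, an orphan nuclear receptor, was at -0.23 ± 0.09, and PPARGC1A, a coactivator of mitochondrial genes, at 0.31 ± 0.13. PPARGC1A was the 1 positive gene of this list. It spans over 500 kb, where 63.5% of genes were positive and 9.92% were higher at an unadjusted p under 0.05. FOSB, FOS, NR4A2, SIK1, PER1, DUSP1, RGS2 and BTG2 each span up to 20 kb. Among all tested genes of that span the median was -0.06 and 35.8% were positive. Several genes of the list also answer to other signals, and earlier results of these data on immediate early genes were known when the list was made. The CREB family and its coactivators themselves lay between -0.09 and 0.08, with CREB1 at 0.08, CREBBP at 0.06, CREM at -0.09 and CRTC1 at -0.09.

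TH and DBH, the defining genes of noradrenaline synthesis in sympathetic nerves, were at 0 in all libraries (TH) and at most 1.65 normalized counts (DBH). The uptake and breakdown genes showed no gene past an unadjusted p of 0.05 in limma, and 0 of the 7 tested were called by limma, edgeR, DESeq2 or limma-voom. MAOA, which breaks down catecholamines, was at -0.01 ± 0.14. The smallest p-values were those of DDC (-0.95 ± 0.50), SLC6A2 (0.66 ± 0.53), SLC22A3 (0.25 ± 0.21) and PNMT (0.46 ± 0.39), with overlapping groups in each. Counts were low in DDC, with at most 69.6 normalized counts in any library, and in SLC6A2, with at most 25.1. Of the pathway genes named, ADRA1B, GNAO1, ADCY8, GRK3, GRK6, ARRB1, PDE4B, AKAP9, PRKAR1A, PRKAR2A, PRKAR2B, BVES, RAPGEF4, RYR2, PLN, PPARGC1A, CREB1, CRTC1, SLC6A2 and SLC22A3 also overlap another RefSeq entry. Whether reads of the overlapping entries were kept apart is not stated.

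Of the 36 pairs that the 9 genes form, GRK5 with PDE3A had the highest correlation of log2 values between libraries. Over the 7 libraries the log2 values of GRK5 and PDE3A had a Pearson r of 0.934 (exact permutation p = 0.000595 over 5040 orderings, 0.0214 adjusted over 36 pairs of the 9 genes) and a Spearman rho of 0.964 (exact permutation p = 0.00278, adjusted 0.1). Pearson's r was 0.83 without the 2 libraries farthest from the median of GRK5, and 0.877 for deviations from the group means. PDE3A with PDE4D (r = 0.913) and GRK5 with PDE4D (r = 0.902) had adjusted exact permutation p-values of 0.0714. The r of AKAP6 with these 3 genes lay between 0.719 and 0.778, and between 0.361 and 0.494 for deviations from the group means. Among all pairs 1 passed the adjusted threshold for Pearson's r and none for Spearman's rho. All pairs share their libraries and the size factors. The orderings mixed the groups, so a group difference that both genes share also raises r and lowers its p. No p was computed for the deviations from the group means. GRK5, PDE3A and PDE4D are long genes, and the libraries differed in their slope on span, from -0.10 to 0.09. How often other pairs of genes reach such an r was not tested.

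The 4 genes that were higher in S100a1 at an unadjusted p under 0.05 were also the 4 with the longest span on the genome. GRK5 spans 237.2 kb, PDE3A 324.3 kb, AKAP6 548.6 kb and PDE4D 1509 kb, whereas the other 5 span 1.41 to 168 kb. Over all genes tested the median log2 fold change climbed with span: it was -0.06 in 6481 genes of up to 20 kb, 0.05 in 956 genes of 200 to 500 kb and 0.08 in 252 genes over 500 kb. The groups did not overlap, with S100a1 higher, in 2.04% of the genes of up to 20 kb, 9.41% of those of 200 to 500 kb and 8.73% of those over 500 kb. The slope of a library's log2 values on span, per 10-fold of span, was 0.09, -0.02, -0.01 and 0.03 in S100a1 replicates 1 to 4, and -0.03, 0.04 and -0.10 in hrLuc replicates 1 to 3, so the extremes were S100a1 replicate 1 and hrLuc replicate 3. With that trend removed from each library, an alternative added after the data had been seen, the log2 fold changes were 0.30 in GRK5, 0.36 in PDE3A, 0.33 in PDE4D and 0.20 in AKAP6, with unadjusted p between 0.0283 and 0.0410 and adjusted p between 0.571 and 0.588 (limma). What moves with span in these libraries was not tested.

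**Figure D5:**
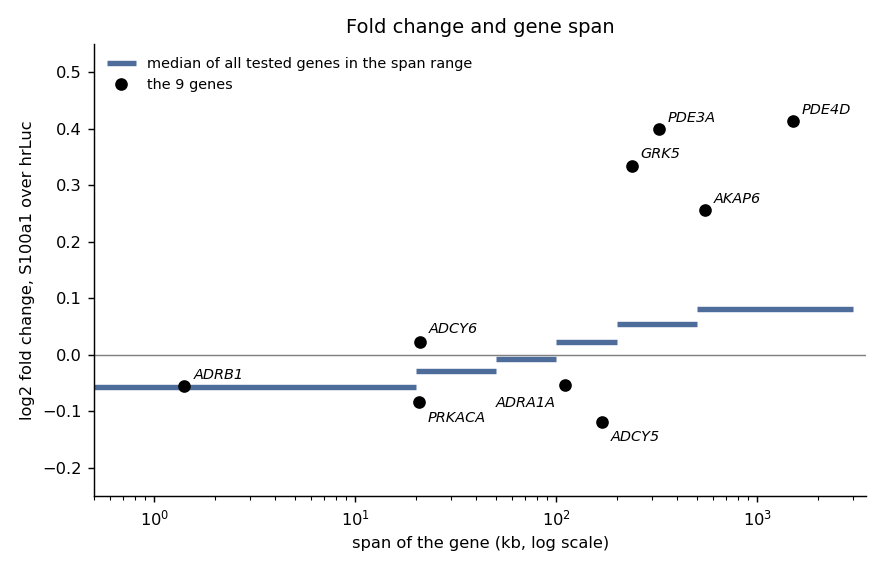
Log2 fold change (S100a1 over hrLuc) of the 9 genes (black points) against the span of the gene (kb, log axis), with the median of all tested genes in each span range as blue lines. The medians climb between -0.06 and 0.08, and GRK5, PDE3A, AKAP6 and PDE4D lie above the median of their range.

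The make-up of the samples was read from marker genes. The 12 cardiomyocyte markers summed to 4947020 to 6229330 normalized counts in S100a1, against 4752900 to 5339260 in hrLuc, and 0 of 12 passed in limma. TTN was the largest part of the sum in every library, with 2569500 to 3842610 in S100a1 and 2674100 to 3272270 in hrLuc, so these ranges mostly follow TTN. Centred on the mean log2 value of the 12 markers, the log2 fold changes were 0.27 in GRK5, 0.34 in PDE3A, 0.35 in PDE4D and 0.19 in AKAP6, with unadjusted p between 0.0698 and 0.111 (limma). The markers include RYR2 (0.42), PLN (0.16), TNNI3 (0.12) and MYBPC3 (-0.02), which are also on the list of protein kinase A substrates. The centring thus rests in part on genes of the pathway. The 9 fibroblast markers summed to 90128 to 145273 in S100a1, against 138909 to 161626 in hrLuc, and 8 of 9 had a negative log2 fold change with 0 past the threshold. The 8 endothelial markers summed to 26661 to 29312 in S100a1, against 27370 to 31667 in hrLuc, and the 9 of smooth muscle and pericytes to 29058 to 33654.5, against 30059 to 37870 in hrLuc. The 8 T and natural killer cell markers summed to 409 to 521 in S100a1, against 480.1 to 870.5 in hrLuc. Of these 8, 7 were on the negative side and the median log2 fold change was -0.80, the lowest of the marker lists, with 0 past the threshold in limma. Of the 7, 4 had an unadjusted p under 0.05, and the groups did not overlap in 3, CD5, CD4 and GZMH. Over all genes tested 4.57% were lower at that p and 5.31% were lower without overlap. Counts were low, with GZMH at 5.56 to 19.8, CD5 at 31.4 to 105 and CD4 at 73.2 to 227 over the 7 libraries. The 8 macrophage markers summed to 6084 to 9718 in S100a1, against 6810 to 10539 in hrLuc, and 0 markers of any list passed in limma. No marker of the lists summed here was at 0 in all libraries. Lists of adipocyte markers and of nerve and Schwann cell markers were also read, and of these TH was at 0 in all libraries. The part of cell make-up in the results was not tested.

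Genes with the most similar pattern to a receptor were those with the smallest root mean square difference of log2 values, each centred on its own mean over the 7 libraries, among 12645 genes with a symbol and a mean of at least 50. For ADRB1 they were ATL3 (0.0378), COPB1 (0.044) and CHST10 (0.0443), whose log2 fold changes were -0.07, -0.08 and -0.05. For ADRA1A they were SLC18A1 (0.0634), TBC1D25 (0.085) and DCXR (0.09). SLC18A1 showed the same split as ADRA1A, with 88.5, 110.0, 128.5 and 86.4 normalized counts in S100a1, against 77.2, 114 and 123 in hrLuc.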

How the data were processed

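Per the labels' protocols, RNA came from a Qiagen extraction and the libraries from a kit that removes ribosomal RNA. The submitters' processing notes list DESeq2 1.33.1, FastQC 0.11.8, R 4.1.2 and the build Sscrofa11.1, without saying what each was for. The sources used here name no aligner, counter or strand setting. The deposited signal values, 63562 transcript rows by 7 libraries, are read counts that the authors divided by 1 size factor per library: 100% were whole multiples of 1 read within 0.01 read. The deposited log2 and ratio columns hold the authors' fold change, and the deposited p-value column their adjusted p.

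The row of the highest mean was kept for each of 20653 genes. The 15661 genes that reached 10 normalized counts in 3 or more libraries were fitted with limma 3.58.1 (R 4.3.3), with a mean-variance trend, on log2(value + 0.5) without covariates. Tests were two-sided and the threshold was 0.05. On this scale the change of a gene with few reads is understated. The alternatives included DESeq2 1.42.0, edgeR 4.0.16 and limma-voom on the recovered whole reads. Exact permutation tests used the absolute difference of group means over 35 splits. By its title each library is a different pig, and the labels give no batch. Named genes were the 9 genes, up to 4 of each role list with the smallest p, and the 3 most similar to each receptor. ADRB3, ADRA2A, ARRB1, PDE3B, PRKACB, PRKAR1A, MAOA, TH and DBH were named for their roles, after their values were seen. Some genes picked by the rule are not reported here. The genes and lists were chosen with earlier results of these data known. Positions and spans are those of RefSeq on Sscrofa11.1.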

Additional observations from a re-analysis of the deposited data

Results flagged for a closer look

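In 57 named genes the 4 S100a1 libraries were checked for 1 value far from the other 3, measured as its gap to the nearest value over the range of the group. Chance marks about 1 in 20 such groups, and 5 were marked here. In ADCY5 the gap was 0.841 of the range, with 5339.7 normalized counts in S100a1 replicate 1 and 3629 to 3901 in the other 3 S100a1 libraries. In GRK6 it was 0.833, with 341 in S100a1 replicate 1 and 434 to 452 in the others. In CREB1 it was 0.902 and in PRKAR2B 0.912, in both with S100a1 replicate 3 low, at 2343 and 374 against lowest values of 2454 and 436 in the others. In PDE7B it was 0.895, with 4769.9 in S100a1 replicate 2 and 4316 to 4364 in the others.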

How the results depend on the processing

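No other setting called any of the 9 genes at its threshold, over 26 refits, in which AKAP6 came closest with an adjusted p of 0.0510 (DESeq2). GRK5, PDE3A, PDE4D, AKAP6, ADCY5 and PRKACA kept their sign in each refit that gave a value; PDE4D had none among genes without overlap. The sign turned in 12 of 233 refitted values, all of the 3 genes ADRB1, ADRA1A and ADCY6. ADRB1 was at 0.03787 with the gene span trend removed, and between -0.137 and 0.03606 with a library left out. ADRA1A was at 0.06723 in its lowest transcript row, and between -0.2459 and 0.04692 with a library left out. ADCY6 was at -0.07653 with quantile normalization, -0.03978 centred on cardiomyocyte markers and -0.002474 with abundant genes left out, and between -0.01601 and 0.06771 with a library left out. Over all genes 2 passed with the reported settings, 1 with median centring and among genes without overlap, 0 with limma-voom, 89 with DESeq2, and 0 to 3 with a library left out. Of the other pathway genes DESeq2 called 1, FOSB. The cause was not tested. No pairing by replicate number was seen: same-numbered deviations had r between -0.0749 and 0.0823, and not every library was closest to its own number. Deviations from the means of groups of 4 and 3 libraries cannot tell whether pigs were handled in pairs. The fit with the replicate block also left out S100a1 replicate 4, which shares its number with no hrLuc library; 0 of all genes and 0 of the 9 passed in it, as in the fit without that library and with no block. With 4 and 3 libraries the 95% intervals were wide, from 0.01 to 0.82 for PDE4D and from 0.08 to 0.43 for AKAP6.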
